A study of Mus musculus with 6 samples.

Results

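The genes described here are the hepcidins and the proteins that set hepcidin transcription in the liver through bone morphogenetic protein (BMP) and hemojuvelin. They were chosen by name, as the probes of the array whose RefSeq accession belongs to Hamp, Hamp2, Bmp6, Bmp2, Hjv, Tfr2, Hfe, Tmprss6, Id1 or Smad7. All 10 genes were on the array, of 22911 genes with a symbol, and they were measured by 13 of 56605 probes. The livers came from male mice that were 12 weeks old when the diets began. In the control group 3 mice ate granulated regular food only, and in the soy group 3 mice ate 75% regular food with 25% soy bean powder, for 4 weeks in both groups. Liver RNA of each mouse was hybridized to its own 1-colour Agilent array. The array spots well above background numbered 37010, 36366 and 38163 in control 1 to 3 and 31308, 31988 and 32498 in soy 1 to 3, of 59305 spots on each array, and the 3 mice per group limit the precision of every value. All 7 hepatocyte markers (Alb, Apoa1, Ttr, Apob, Tat, Cps1 and Serpina1a) were well above background on all 6 arrays. A value below is a normalized signal on the log2 scale, and a change is the soy mean minus the control mean on that scale.

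Hepcidin is a peptide hormone made by hepatocytes, and it blocks the iron exporter ferroportin, so that less iron enters the blood. Endothelial cells of the liver sinusoids secrete BMP6 and BMP2, which bind BMP receptors on hepatocytes together with the co-receptor hemojuvelin, and the receptors then activate the SMAD proteins that turn on Hamp. HFE and transferrin receptor 2 report the iron load of transferrin to the same pathway, the protease TMPRSS6 dampens it by cutting hemojuvelin, and Id1 and Smad7 are among its target genes. The mouse carries a pair of neighbouring hepcidin genes, of which Hamp encodes the iron hormone, whereas Hamp2, transcribed in liver and pancreas, has no established part in iron regulation.

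The promoters of both hepcidin genes are shown because the genes are near copies whose signals are set against each other below, and because BMP and STAT signals act on this stretch of Hamp. RefSeq promoters (assembly GRCm38.p6) were held for 5 of the 10 genes, namely Bmp6, Hamp, Hamp2, Hfe and Tfr2. The sequences are the 250 bases before the start of each gene, 5′ to 3′ on the minus strand, at chr7:30944030-30944279 for Hamp and at chr7:30924182-30924431 for Hamp2. Capitals mark the letters GGCGCC, the core of the BMP response element, where Hamp holds them and the aligned letters of Hamp2, and a match to the STAT motif TTCNNNGAA.
Hamp: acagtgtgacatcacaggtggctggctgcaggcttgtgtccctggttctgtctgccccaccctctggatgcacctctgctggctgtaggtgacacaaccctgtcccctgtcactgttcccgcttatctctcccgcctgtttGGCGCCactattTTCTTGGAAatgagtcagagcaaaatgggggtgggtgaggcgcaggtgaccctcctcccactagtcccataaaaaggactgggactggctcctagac
Hamp2: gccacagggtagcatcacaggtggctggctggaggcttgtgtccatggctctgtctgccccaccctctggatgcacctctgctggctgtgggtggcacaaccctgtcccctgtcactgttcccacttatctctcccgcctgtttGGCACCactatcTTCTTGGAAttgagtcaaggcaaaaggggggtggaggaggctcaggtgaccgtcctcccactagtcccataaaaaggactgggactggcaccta

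Over 247 aligned bases the promoters were 91.9% identical, with 20 substitutions. In the GGCGCC letters there was 1 substitution, G145A, counted from 1 at the 5′ end of the Hamp sequence, with the Hamp base given before the position. The letters GGCGCC began 109 bases before the Hamp start and were in the Hamp2 window on neither strand, whereas the TTCNNNGAA match, TTCTTGGAA, was in both, beginning 97 bases before the start of Hamp and 94 before that of Hamp2. Among 32851 promoters of the same length, 9.59% held GGCGCC and 7.02% held TTCNNNGAA. The SMAD palindrome GTCTAGAC and the E-box CACGTG, held by 0.167% and 6.02% of all promoters, were searched as well, and their only match among the 5 genes was CACGTG in Bmp6. All 4 motifs read the same on both strands, and no 2 of their matches overlapped. A match describes letters only.

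None of the 10 genes passed the test, which asked for an adjusted p under 0.05 (limma, Benjamini-Hochberg over all probes) with a fold change above 1.5 or under 0.66, where 0.532% of all genes passed on at least 1 probe. At an unadjusted p under 0.05 there were 3 of 10, against 14.2% of all genes. On the brightest probe of each gene 5 were higher and 5 lower in soy livers, with a median change of -0.018, against -0.0057 over all genes. The groups were apart, with no overlap between soy and control, for 3 genes, as for 20.4% of all genes. Of these, 1 was lower on every soy array, Hamp2, where 10.8% of all genes were, and 2 were higher, Hjv and Hfe, where 9.67% were. The groups overlapped for 6 genes, and Smad7, which lacked a control value and was not counted, overlapped in the values it had. Of the 13 probes, 12 were well above background on all 6 arrays and none was saturated on any.

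**Figure D1:**
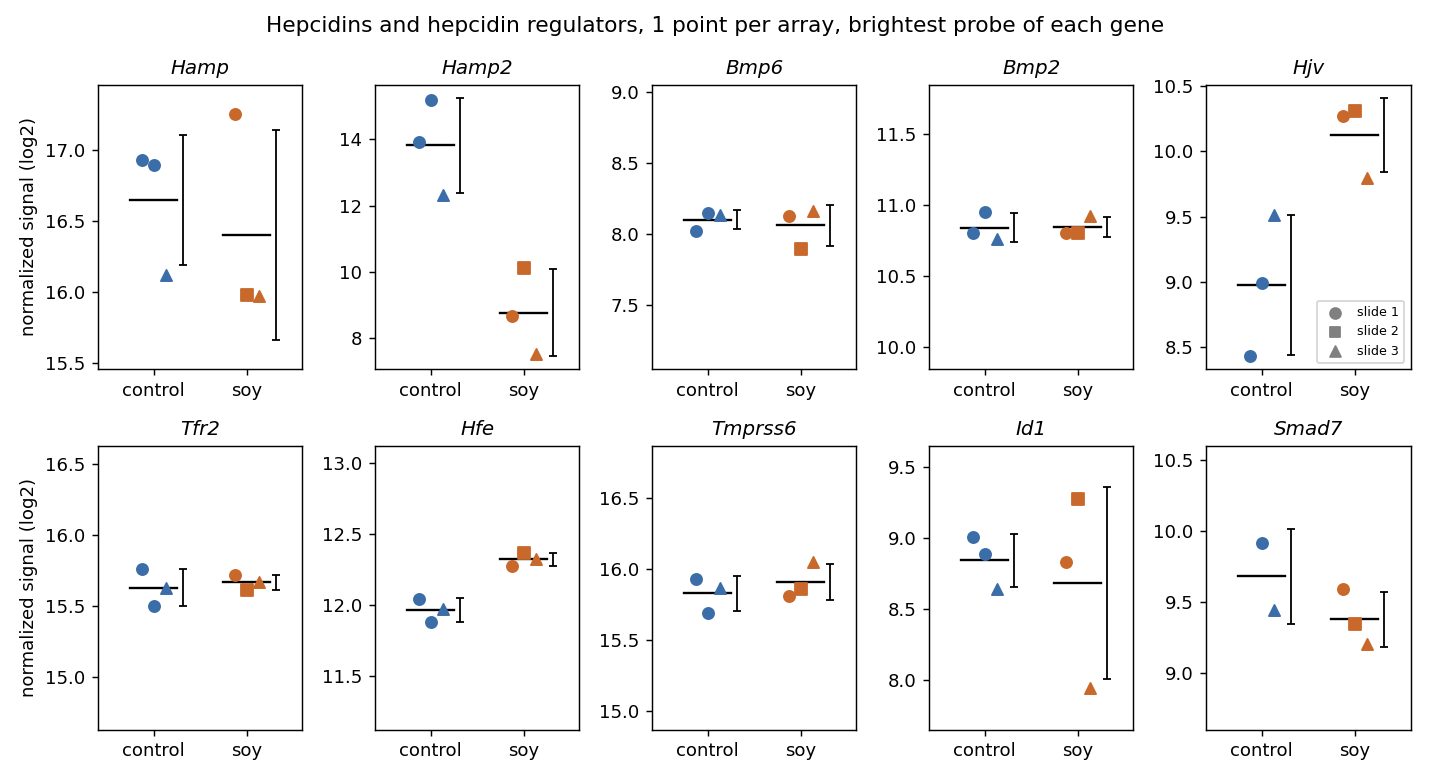
Normalized signal (log2) of the brightest probe of each of the 10 genes, 1 point per array, with the shape of the point giving the slide, a line at the group mean, a bar of 1 SD at its side and a scale of its own in each panel. Hamp2 lies lower on all soy arrays, Hjv and Hfe lie higher, and the other genes overlap, among them Smad7, which has 2 control points.

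Hamp2 (NM_183257) had the largest change of the 10 genes. Its signal was 13.93, 15.20 and 12.33 in control livers and 8.68, 10.13 and 7.52 in soy livers. Every soy liver lay below every control liver, with 2.20 between the highest soy and the lowest control value, and both groups were spread widely. Before normalization the median spot signal was 19372, 40478 and 4911 in control and 415, 973 and 190.5 in soy, where the local background was 53 to 58.5, and the probe was well above background on all 6 arrays. The means were 13.82 ± 1.43 in control and 8.78 ± 1.31 in soy (SD, n = 3), a change of -5.04 (SE 0.82, 95% confidence interval -6.95 to -3.14), or 33.0-fold. The adjusted p was 0.0617 (limma, unadjusted p = 0.00033), so that Hamp2 did not pass. Of the 27311 probes above background on all 6 arrays, none had a lower change, while the changes of probes at background in one diet are bounds and were not ranked. Its SD within the groups, 1.37, was exceeded by 19 of these probes, and their median SD was 0.158.

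Control 3 was the lowest control array for Hamp2 and soy 3 the lowest soy array, and both lay on the same slide. Of the 3 slides, slide 1 carried control 1, control 2 and soy 1, slide 2 carried soy 2 alone, and slide 3 carried control 3 and soy 3. Within slide 1 the Hamp2 change was -5.88, and within slide 3 it was -4.81. Without control 3 the gene passed (change -5.79, adjusted p = 0.0475, limma), and without any other array the adjusted p lay between 0.106 and 0.171. The alternatives of the processing kept the change between -5.52 and -5.02, on either side of the threshold.

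Hamp (NM_032541), the gene of the iron hormone, showed no such separation. Its signal was 16.93, 16.89 and 16.12 in control livers and 17.25, 15.98 and 15.98 in soy livers. The highest and the lowest array were both soy arrays, so the groups overlapped fully. The change was -0.24 (SE 0.37, adjusted p = 0.847, limma), and its 95% confidence interval, -1.11 to 0.63, spans 0.462 to 1.54 times the control level. With 1 array left out the change ran from -0.67 (without soy 1) to -0.03 (without soy 2 or soy 3). The high values of Hamp lay on slide 1, with a mean of 17.03, whereas slides 2 and 3 had means of 15.98 and 16.05. Within slide 1 the change was 0.34 and within slide 3 it was -0.14, and fitting slide as a block gave 0.13 (adjusted p = 0.740).

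The changes of both hepcidins were set against each other on the same arrays. The log2 difference of Hamp2 from Hamp moved with diet by -4.80, which is 27.8-fold. All 3 soy arrays were lower in this difference than all 3 control arrays, with an exact two-sided permutation p of 0.1, the smallest that 20 splits of 3 against 3 arrays allow. In the alternatives tried the value ran from -5.69 to -4.23. Whether either probe also binds the transcript of the other gene was not tested.

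**Figure D2:**
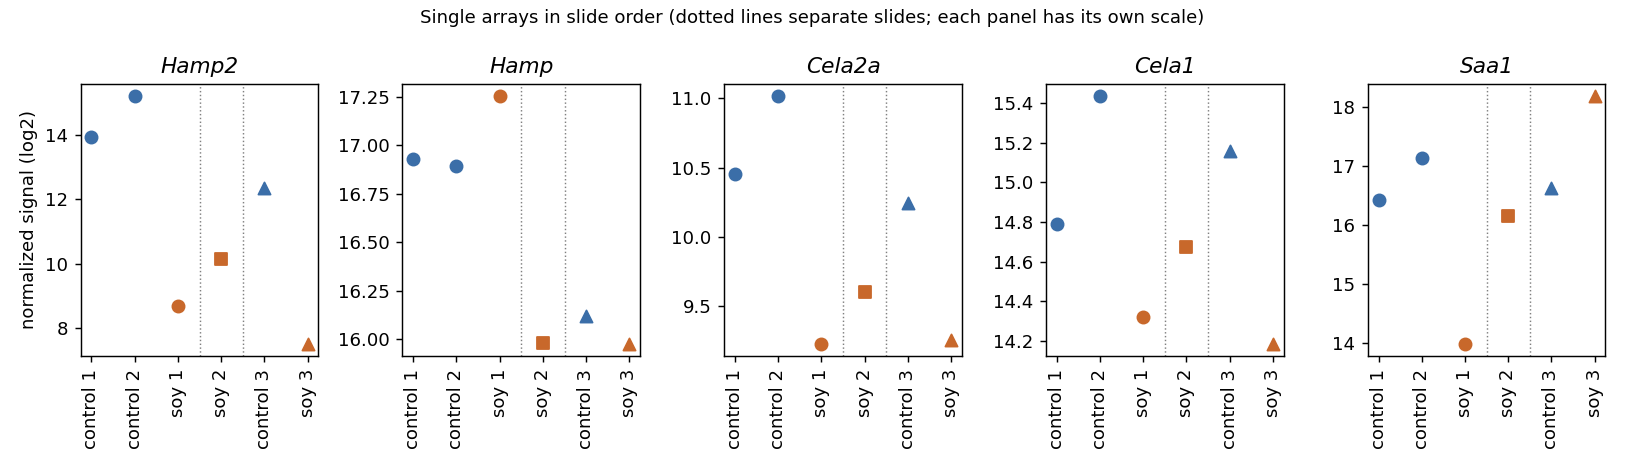
Normalized signal (log2) of Hamp2, Hamp, the pancreas genes Cela2a and Cela1 and the acute-phase gene Saa1 on each of the 6 arrays, in slide order, with control in blue, soy in orange and dotted lines between slides. Hamp is high on the 3 arrays of slide 1, Hamp2, Cela2a and Cela1 are lower on every soy array, and Saa1 runs from 13.99 to 18.19 among the soy arrays.

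Since Hamp2 is also transcribed in pancreas, a list of 11 pancreas genes was read on the same arrays. The soy mean was lower for all 11, but Cpa1, Cpb1, Pnlip, Prss2 and Ins1 were well above background on no soy array. Their changes are thus not measured sizes, and Ins2, above background on no array, has no readable direction. Cela2a, Cela1, Ctrb1, Amy2a5 and Cel were above background on all 6 arrays and lower in soy. The median change over all 11, -0.33, is that of Pnlip and so is not a measured size either. In 3 of the 11 the groups did not overlap, as for 10.8% of all genes in that direction. None passed (limma), and 4 of 11 had an unadjusted p under 0.05, against 14.2% of all genes. Cpa1 and Prss2, at background in soy, were among these 4. Cela2a, a pancreatic elastase, was 10.46, 11.02 and 10.24 in control and 9.23, 9.60 and 9.25 in soy, a change of -1.21 (adjusted p = 0.0724, limma). Cela1, another elastase, had a change of -0.73 (adjusted p = 0.191), and the chymotrypsinogen gene Ctrb1 of -0.26 (adjusted p = 0.473), both without overlap. The acinar genes Cpa1, Cpb1, Pnlip and Prss2 were well above background on 2 control arrays each and on no soy array. The acinar genes Amy2a5 and Cel were above background on all 6 arrays, with changes of -0.20 and -0.15 and overlap. Of the insulin genes, Ins1 was above background on all 3 control arrays and no soy array, and Ins2 on no array. These background calls are not particular to pancreas genes. Every soy array had fewer spots well above background than every control array (31308 to 32498 against 36366 to 38163). Ins1 was called above background in control 3 at 6.96 and not in soy 1 at 6.97, so the calls alone give no direction of signal. The signals of the list summed to 37195, 53386 and 44480 in control and 27767, 32737 and 24752 in soy. Most of each sum was the signal of Cela1, the brightest gene, so the sums mainly repeat its change. The part of pancreas RNA in the Hamp2 result was not tested, and in whole tissue fewer cells of a type and less RNA per cell cannot be told apart.

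By a rule of likeness, the genes nearest to Hamp2 over the 6 arrays were Cebpe, Tiam2, Nrg4, Rgs16 and Mt1. Likeness was the root mean square difference of log2 values, each taken from the control mean of its own gene, and 15109 genes were compared by their brightest probe. The difference was 1.75 for Nrg4, 1.78 for Rgs16 and 1.88 for Mt1. Cebpe and Tiam2 were well above background on no soy array, so their soy values are bounds, no difference is given for them, and the order of the 5 genes is not settled. Rgs16 also had its lowest control value in control 3, at -2.25 from its control mean, where Hamp2 was at -1.49. Nrg4, Rgs16 and Mt1 had changes of -3.10, -3.22 and -3.97, with adjusted p of 0.0326, 0.212 and 0.0369 (limma). Thus Nrg4 and Mt1 passed, as did Cebpe and Tiam2 (adjusted p = 0.0078 and 0.00065), and Rgs16 did not. As these genes were picked by likeness to Hamp2, their lower soy values follow from the rule. The difference of Hamp from Hamp2 was 3.56. Nearest to Hamp were Tcim (0.138), Pcsk4 (0.162), Pls1 (0.162), Rdh9 (0.186) and Zfp385b (0.206). These 5 genes had changes of -0.27 (Pcsk4) to -0.07 (Rdh9), with adjusted p from 0.786 to 0.957 (limma).

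The ligands Bmp6 and Bmp2 lay close together in both diets. Bmp6 (NM_007556), the chief iron-induced ligand, was 8.02, 8.15 and 8.13 in control and 8.12, 7.89 and 8.16 in soy. Only soy 2 stood a little below the other arrays. The change was -0.04 (SE 0.11, 95% confidence interval -0.30 to 0.22, adjusted p = 0.919, limma), and its sign turned under several alternatives. Bmp2 (NM_007553), the second endothelial ligand, was 10.80, 10.96 and 10.76 in control and 10.81, 10.81 and 10.92 in soy, with full overlap. Its change of 0.0058 (SE 0.10, adjusted p = 0.990, limma) had a 95% confidence interval of -0.23 to 0.24, and its sign turned likewise. The 10 endothelial cell markers had 5 genes higher and 5 lower, a median change of 0.022 and none that passed (limma, 0 at an unadjusted p under 0.05), and their summed signal, led by Clec4g, was 65244 to 69202 in control and 68292 to 74111 in soy.

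Of 13 other BMP ligands and ligand antagonists 5 were higher and 8 lower, with a median change of -0.097. None passed (limma), 4 of 13 had an unadjusted p under 0.05, against 14.2% of all genes, and 3 of 13 did not overlap, all of them lower, against 10.8%. The ligand gene Bmp7 had a change of -0.82 (adjusted p = 0.513) and the antagonist gene Fst of 0.62 (adjusted p = 0.395), with overlap in both.

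Hjv (NM_027126), the gene of the co-receptor hemojuvelin, lay higher on every soy array. It was 8.43, 8.99 and 9.51 in control and 10.27, 10.31 and 9.80 in soy. The lowest soy array, soy 3, lay 0.29 above the highest control array, control 3, its partner on slide 3. The means were 8.97 ± 0.54 and 10.13 ± 0.29 (SD, n = 3), a change of 1.15 (SE 0.27, 95% confidence interval 0.52 to 1.78), or 2.22-fold, with an adjusted p of 0.154 (limma, unadjusted p = 0.0031). The change was 1.56 within slide 1 and 0.29 within slide 3. Its change stood at rank 137 from the top among the 27311 probes above background on all 6 arrays, and its spread within the groups, an SD of 0.43, was wider than that of 95.4% of them.

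Hfe (NM_010424), which encodes an MHC class I-like protein that binds transferrin receptor 1, was 12.04, 11.88 and 11.98 in control and 12.27, 12.36 and 12.32 in soy. The 3 soy arrays lay close together and above all control arrays. The change was 0.36 (SE 0.10, 95% confidence interval 0.13 to 0.58), or 1.28-fold, with an adjusted p of 0.202 (limma, unadjusted p = 0.0063). It was 0.32 within slide 1 and 0.35 within slide 3. For Tfr2, the gene of the second transferrin receptor, the brightest probe (NM_001289509) had a change of 0.04 (95% confidence interval -0.20 to 0.28, adjusted p = 0.918, limma) and the dimmer probe (NM_015799) of 0.09 (adjusted p = 0.813), with overlap on both.

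Tmprss6 (NM_027902), the protease that cuts hemojuvelin, was 15.93, 15.69 and 15.87 in control and 15.81, 15.86 and 16.05 in soy on its brightest probe. Its groups overlapped, and the change was 0.08 (SE 0.11, 95% confidence interval -0.19 to 0.35, adjusted p = 0.834, limma). The dimmer probe gave -0.05 (adjusted p = 0.919), so the sign differed between probes. Among 9 genes of SMAD proteins, of proteases that act on hemojuvelin and of regulators of either, 4 were higher and 5 lower. The median change was -0.033, and none passed (limma, 1 of 9 at an unadjusted p under 0.05, against 14.2% of all genes). That gene was Furin, whose product releases soluble hemojuvelin: it was 14.46, 14.39 and 14.23 in control and 14.02, 14.04 and 14.07 in soy, a change of -0.32 (SE 0.10, adjusted p = 0.291) without overlap. Smurf1, a ubiquitin ligase of the SMAD proteins, had a change of 0.27 (adjusted p = 0.557), and Smad6, an inhibitory SMAD, of 0.20 (adjusted p = 0.611).

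**Figure D3:**
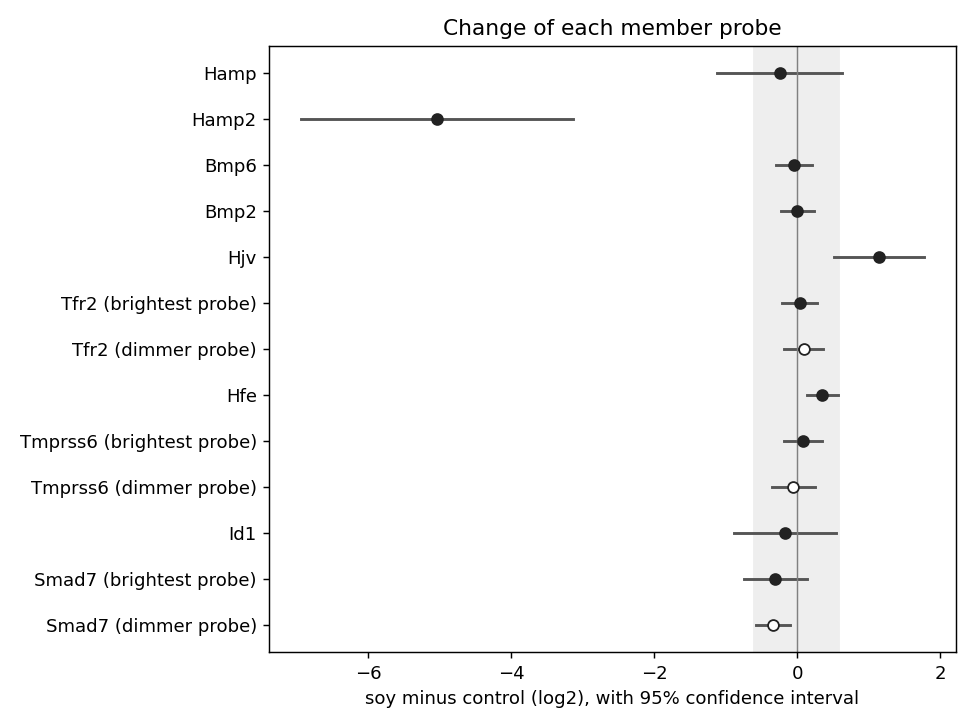
Change of each of the 13 probes (soy minus control, log2) with its 95% confidence interval, filled for the brightest probe of a gene and open for a dimmer one, and a grey band between the fold limits of 0.66 and 1.5. The Hamp2 interval, -6.95 to -3.14, lies far outside the band, the Hjv change of 1.15 lies outside it as well, and the changes of the other probes fall within it.

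Of the BMP receptors and co-receptors, 13 genes in all, 4 were higher and 9 lower, with a median change of -0.085. None passed (limma), 1 of 13 had an unadjusted p under 0.05, against 14.2% of all genes, and 2 of 13 did not overlap, both lower, against 10.8%, so that these counts lie near or below those of all genes. The genes without overlap were the type II receptor genes Acvr2b and Acvr2a. Acvr2b had a change of -0.76 (SE 0.19, adjusted p = 0.171, limma). Acvr2a had a change of -0.30 (adjusted p = 0.486) on its brightest probe, and of -0.16 without control 1. A dimmer Acvr2a probe had a change of -0.06 (adjusted p = 0.876), with overlap. Acvr2b was 11.28, 11.61 and 11.11 in control and 10.90, 10.48 and 10.31 in soy, and a dimmer probe had a change of -0.48 (adjusted p = 0.284), also without overlap. Rgma, a relative of hemojuvelin, had a change of -0.24 (adjusted p = 0.562).

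The target genes Id1 and Smad7 are commonly read as a gauge of BMP signalling in the liver. Id1 (NM_010495), an inhibitor of transcription factor binding, was 9.004, 8.88 and 8.64 in control and 8.83, 9.27 and 7.94 in soy. Its highest and its lowest array were both soy arrays. The change was -0.16 (SE 0.31, 95% confidence interval -0.88 to 0.55, adjusted p = 0.880, limma), and without soy 3 it was 0.21 (adjusted p = 0.746). Within slide 1 it was -0.11 and within slide 3 -0.70.

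Smad7 (NM_001042660), an inhibitory SMAD that closes a feedback loop, had its spot in control 1 marked as an outlier on the brightest probe, and the fit left it out. The other control arrays read 9.92 and 9.45, and the soy arrays 9.59, 9.35 and 9.21, so that soy 1 lay between both controls. The change was -0.30 (SE 0.19, adjusted p = 0.601, limma). It was -0.06 without control 2, -0.54 without control 3 and -0.61 with the outlier spot kept, so that its size rests on single control arrays. On the dimmer probe the arrays read 7.04, 7.20 and 7.23 in control and 6.78, 6.89 and 6.78 in soy, without overlap. No soy array was well above background there, so the change of this probe is not a measured size. It was -0.34 (SE 0.10, adjusted p = 0.253, limma), or 1.26-fold, a plain difference of the group means and not a lower limit. The lowest signals well above background were 6.39, 6.20 and 6.18 on the soy arrays. They lay under the probe's own signals and so set no bound.

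Other target genes of BMP signalling numbered 8, Smad6 from the list above and Bambi from the receptor list among them, with 5 higher and 3 lower, a median change of 0.12 and none that passed (limma, 2 of 8 at an unadjusted p under 0.05, against 14.2% of all genes). Without overlap, 1 of 8 was higher, against 9.67% of all genes, and 1 of 8 lower, against 10.8%. Id4, a relative of Id1, had a change of 0.93 (adjusted p = 0.595), with soy 3 at 9.44 and soy 1 and soy 2 at 6.91 and 7.34, and without soy 3 the change was 0.16. Dusp1, a phosphatase, had a change of -0.58 (adjusted p = 0.457). Atoh8, a transcription factor that binds the Hamp promoter, was 9.62, 9.31 and 9.08 in control and 9.68, 9.37 and 9.44 in soy, a change of 0.16 (adjusted p = 0.745).

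Inflammation reaches Hamp through interleukin 6 and STAT3. Of 9 genes of this input 2 were higher and 7 lower, with a median change of -0.23, and none passed (limma, 0 at an unadjusted p under 0.05). Il6ra, the interleukin 6 receptor, had a change of -0.77 (adjusted p = 0.445, limma), which was -1.15 to -0.41 with 1 array left out. The feedback inhibitor Socs3 had a change of -0.63 (adjusted p = 0.656), which was -1.17 to -0.23 with 1 array left out. Stat3 had a change of -0.32 (adjusted p = 0.479). The groups overlapped for each on the brightest probe, while a dimmer Stat3 probe had a change of -0.44 (adjusted p = 0.226) without overlap. The acute-phase genes, 12 in all, had 4 higher and 8 lower, a median change of -0.072 and none that passed (limma, 2 of 12 at an unadjusted p under 0.05, against 14.2% of all genes). Saa1, a serum amyloid gene, was 16.43, 17.14 and 16.63 in control and 13.99, 16.16 and 18.19 in soy. The soy livers thus held both the lowest and the highest Saa1 value, soy 1 and soy 3, while Hamp was highest in soy 1 and at 15.98 in both soy 2 and soy 3. Saa2 followed Saa1 closely, with a change of -0.64 against -0.62. Saa3 had a change of 1.20 (SE 0.45, adjusted p = 0.372, limma), which was 0.71 to 1.66 with 1 array left out.

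Genes of iron handling outside the pathway held the only genes that passed among these lists. Of 13 genes 7 were higher and 6 lower, with a median change of 0.064. In this list 1 gene rose, where 0.34% of all genes did, and 1 fell, where 0.192% did, while 6 of 13 had an unadjusted p under 0.05, where 14.2% did. Tfrc, transferrin receptor 1, which takes up iron-loaded transferrin, was 9.51, 9.77 and 9.45 in control and 10.69, 10.71 and 11.02 in soy. It rose by 1.23 (SE 0.14, adjusted p = 0.0218, limma), and its dimmer probe had a change of 1.15 (adjusted p = 0.0518). With slide as a block it did not pass (1.27, adjusted p = 0.135). With 1 array left out its adjusted p ran from 0.0435 to 0.0855, and the only such fit in which it passed was that without control 2.

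Slc39a14, the importer ZIP14 that takes up iron not bound to transferrin, was 13.88, 13.70 and 13.69 in control and 12.93, 12.81 and 13.07 in soy. It fell by 0.81 on the log2 scale (adjusted p = 0.0405, limma), and with any 1 array left out it did not pass (0.0761 to 0.139), nor with slide as a block (-0.75, adjusted p = 0.184). Slc11a2, the iron transporter DMT1, had a change of 1.08 (adjusted p = 0.0504, limma) on its brightest probe without overlap. Its other probes, annotated to another RefSeq transcript of the gene, had changes of -0.20, -0.10 and 0.034. The brightest probe passed in 4 of 17 alternatives, with adjusted p from 0.00496 to 0.162 over all of them. Slc40a1, which encodes ferroportin, the target of hepcidin, was 13.40, 13.89 and 13.91 in control and 14.05, 14.02 and 14.58 in soy. The soy arrays were all higher, and the change of 0.49 did not pass (SE 0.20, adjusted p = 0.410, limma).

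**Figure D4:**
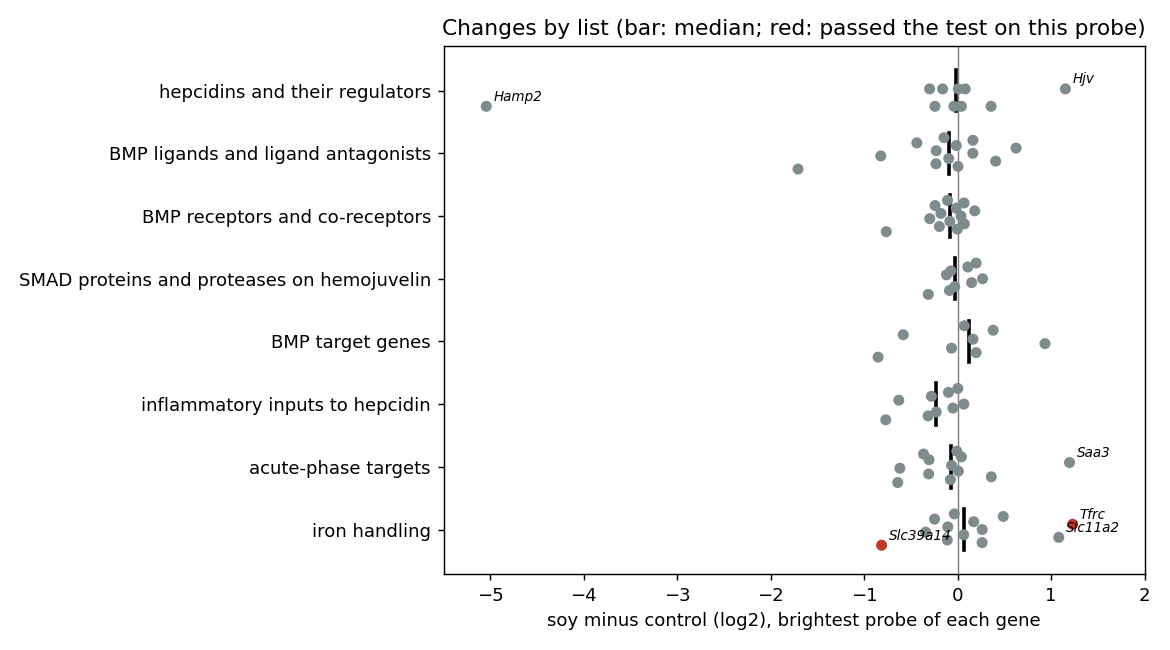
Change of the brightest probe of each gene (soy minus control, log2) for the 10 genes described here and for the 7 lists of related genes, with 1 point per gene, a black bar at the median of each list and red points for genes that passed. The medians lie between -0.23 and 0.12, Hamp2 lies at -5.04, and the red points are Tfrc at 1.23 and Slc39a14 at -0.81.

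The other cell types that a liver sample can hold were read by their markers. The Kupffer cell markers had 7 of 8 genes higher in soy (median change 0.11), the stellate cell markers 2 of 8 (-0.12), the cholangiocyte markers 4 of 6 (0.11) and the blood cell markers 7 of 7 on the array (0.33), and none passed in any of these lists (limma, 0, 3, 0 and 1 at an unadjusted p under 0.05, where 14.2% of all genes were). The largest changes in each list are given among genes above background on every array of either diet. They were -0.997 for the collagen gene Col1a1 (-0.61 without control 1) and -0.94 for Col3a1. These were the 2 of 8 stellate markers without overlap on their brightest probe, both lower (10.8% of all genes), while a dimmer Col1a1 probe overlapped. The macrophage receptor gene Marco had a change of -0.73 (-0.20 without control 3, which was at 12.71) and the neutrophil gene S100a9 of 0.62. The bile duct gene Sox9 had a change of -0.16, and its dimmer probe gave 0.35. Next came 0.45 for Cd5l and 0.44 for Vsig4 (Kupffer cells), 0.33 for Rgs5 (stellate cells), 0.15 for Spp1 (cholangiocytes), and 0.58 for S100a8 and 0.42 for Alas2 (blood cells), while Krt7 was well above background on no soy array. Without control 2, which was at 11.43, the Alas2 change was -0.42. With 1 array left out the change was 0.29 to 0.84 for S100a8, 0.33 to 0.97 for S100a9 and 0.02 to 0.36 for Spp1. For Cd5l it was 0.20 to 0.61 and for Vsig4 0.27 to 0.62. Among hepatocyte markers 2 of 7 were higher, with a median change of -0.07, none that passed (limma, 3 of 7 at an unadjusted p under 0.05, against 14.2%), and changes of -0.76 for Tat, a tyrosine aminotransferase, -0.47 for Cps1 of the urea cycle and 0.46 for Apob. Of the endothelial markers, Kdr had a change of 0.30, Cdh5 of 0.22 and Lyve1 of -0.67, and for Lyve1 control 1 was at 11.16 against 9.23 and 9.32 in the other control arrays. The part of these cell types in the hepcidin results was not tested.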

How the data were processed

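Liver RNA of 6 mice, 3 per diet, was measured with 1 array each, and groups follow the sample labels. The authors scanned 1-colour Agilent mouse arrays and deposited, per the file headers, Feature Extraction 11.5.1.1 output, whose median spot and background intensity is not normalized and whose processed signal intensity is background subtracted. They also deposited a table of log2 values, whose array medians lie near 7.33 (log2), and which differ from the values used here by at most 0.071. How that table was normalized is not given in the sources used here. The age and sex of the mice come from the study's methods.

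Here normexp (offset 50) corrected the median intensities for background. After removal of control spots came quantile normalization and log2, and outlier spots were dropped before the spots of each probe were averaged. The soy and control arrays were compared on all 56605 probes in R 4.3.3 (limma 3.58.1, lmFit with eBayes), adjusted by Benjamini-Hochberg. A probe passed when its adjusted p was under 0.05 and its fold change above 1.5 or under 0.66, which 198 probes (0.35%) did. Symbols came from RefSeq accessions (assembly GRCm38.p6) for 32994 probes (58.3%), and no array positions are given, since the arrays were annotated on another build. A gene is given by its brightest probe over the 6 arrays. The fit was tested on simulated data. Promoters were aligned with Biopython 1.88, tables were made with Python 3.11.15 and pandas 2.3.3, and plots with matplotlib 3.10.9.

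The genes and the 14 gene lists were chosen with earlier results of these data known. Named are the 10 genes on every probe, and of each list the genes that passed and the 3 largest changes on the brightest probe among genes above background on every array of either diet, with Slc40a1, Tfrc and Atoh8 and the 5 genes most like each hepcidin. Genes named outside this rule (Cpa1, Cpb1, Pnlip, Prss2, Amy2a5, Cel, Ins1, Ins2 and the markers that describe a sample) were chosen after their values were seen. Some genes that the rule names are not reported here, though list counts include them. Alternatives were no background correction, offset 16, the processed signal, cyclic loess, a 75th-percentile shift, bright probes only, outliers kept, the deposited log2 values, eBayes with trend and robust settings, replicate or slide as a block, adjusted p alone, the mean of the probes of a gene, values within slides, and each array left out.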

Additional observations from a re-analysis of the deposited data

How the results depend on the processing

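None of the 10 genes passed under no background correction, an offset of 16, cyclic loess, outliers kept, the deposited log2 values, trend and robust settings, the slide block or adjusted p alone. With the processed signal 3 passed (Hamp2, Hjv and Smad7, the last by its dimmer probe only, above background on no soy array), where 13138 probes passed and 90.8% of these were higher, against 198 and 59.6% in the analysis as reported. A 75th-percentile shift gave 299 probes, only bright probes 496, an offset of 16 gave 77 and slide as a block 25 (48% higher). In the first 2 of these settings, as in the replicate block, 1 of the 10 genes passed, Hamp2. Both the processed signal and the 75th-percentile shift moved the median change of all probes, to 0.125 and 0.134.

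Hamp2 had a lower signal in soy in every alternative. It passed with the processed signal (-5.52, adjusted p = 0.0133, limma), the 75th-percentile shift (-5.06, 0.0437) and bright probes alone (-5.04, 0.0305), and its adjusted p over all alternatives ran from 0.00202 to 0.171. With 1 array left out the probes that passed numbered 25 to 203, the genes among the 10 numbered 0 to 1, and the Hamp2 change was -5.79 to -4.35. Hjv had a change of 1.32 with the processed signal (adjusted p = 0.0371) and of 0.88 to 1.42 with 1 array left out. The difference between the hepcidin changes kept its direction in all 13 alternatives.

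Replicate numbers do not pair the mice by any label. Samples of the same number correlated at -0.052 to 0.104 in their deviations from the group means, and 4 of 6 correlated best with their own number. With the number as a replicate block 78 probes passed, and Hamp2 gave -5.04 (SE 0.12, adjusted p = 0.00202).

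Small changes turned their sign. Slide as a block gave 0.13 for Hamp and 0.035 for Bmp6. The processed signal gave 0.0083 for Bmp6 and -0.0067 for Bmp2, and the 75th-percentile shift 0.059 for Bmp6, -0.0041 for Bmp2 and 0.081 for Krt7, below the shift of all probes. With 1 array left out the ranges were -0.093 to 0.043 for Bmp6, -0.033 to 0.063 for Bmp2, -0.025 to 0.11 for Tfr2, -0.46 to 0.21 for Id1, -0.42 to 0.85 for Alas2, -1.66 to 0.44 for Saa1 and -1.72 to 0.49 for Saa2. Tfrc passed in 10 of 17 alternatives and Slc39a14 in 8, and neither passed with the replicate block (adjusted p = 0.0702 and 0.0990). The cause of these shifts was not tested. The mean spot signal was planned as an alternative and not run, since the columns used here do not include it.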
